A study of Mus musculus with 10 samples.

Results

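The jejunum of old mice fed yogurt was compared with the jejunum of old mice fed the same diet without it, using the 2 jejunal arrays among the 10 arrays of the study. The yogurt-fed group was male ICR mice, an outbred stock, kept on AIN-93, a purified rodent diet, with LB81 yogurt making up 1 to 2% of it, and the control group was male ICR mice on AIN-93 alone. The diets ran from 8 to 28 months of age, in single cages and specific-pathogen free, and tissue was taken at 28 months. RNA of 10 yogurt-fed mice and of 9 control mice was pooled in equal amounts per tissue, so each diet had 1 pool and 1 array in jejunum. There are no replicates, precision is limited by how few arrays there were, and each difference describes these 2 pools, with no test and no error. The 4 other tissues (liver, spleen, ileum and distal colon) came from the same mice, and their 8 arrays are used only to place the jejunal values.

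Values are log2 expression values as deposited, and a difference is always yogurt minus control on that scale. The median of each array served as a floor, 5.47 in the yogurt and 5.48 in the control jejunum, and a value below the floor was raised to it before a difference was taken. A gene was called measured when at least 1 of the 2 pools lay above the floor. Where the dimmer pool lay under the floor, the difference is a lower bound and is written as at least that fold. Of 18193 genes with a probe set of their own, 12279 were measured in jejunum. The 2 pools had a Spearman correlation of 0.996 across genes, which are not independent replicates, and the 5th to 95th percentiles of the differences ran from -0.25 to 0.26. RNA quality was alike by the log2 difference between 3' and 5' control probe sets, which was 0.21 and 0.17 for Gapdh and 1.00 and 0.97 for actin in the yogurt and control pools.

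The jejunum is the stretch of small intestine in which most sugar, fat and amino acid is absorbed. Its villi are covered by enterocytes that carry digestive enzymes and transporters on a brush border, and its crypts hold stem cells and Paneth cells, which release antimicrobial peptides into the lumen. Most digestive enzymes that act in its lumen, trypsin and lipase among them, are made by acinar cells of the pancreas, which lies against the duodenum and close to the first loops of jejunum.

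Checked against marker genes, both pools carried the label's tissue together with genes of neighbouring organs. Lct, the lactase of jejunal enterocytes, stood at 9.98 in the yogurt and 10.50 in the control pool, against 5.22 in the control ileum. Fabp6, the ileal bile acid binding protein, was below the floor in both jejunal pools, at 4.31 and 4.39, while it was bright in ileum. Pdx1, a factor of duodenum and pancreas, stood at 9.46 and 9.55. Gkn3, a gene of the stomach lining, stood at 13.07 and 13.16, and 10 of the 18 stomach genes on the array lay above the control array's 75th percentile of 7.60 in the control pool, while Atp4a, the acid pump, was below the floor. The labels do not give the position along the gut at which the jejunum was cut.

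Across the measured genes, 40 were at least 2-fold higher in the yogurt pool, 0.326% of them, and 3 were at least 2-fold lower, 0.0244%. At 1.5-fold the counts were 78 higher (0.635%) and 30 lower (0.244%). Small differences leaned slightly the other way, with 5704 genes above 0 (46.5%) and 6575 below 0 (53.5%) and a median of -0.01. Counts of higher or lower jejunal genes in a list are to be set beside these shares. The genes at least 2-fold higher fell into 4 kinds: digestive enzymes and other genes of pancreatic acinar cells, the insulin gene Ins2, antimicrobial genes of the crypt and epithelium, and a few others. The 3 genes at least 2-fold lower were Gast, Mid1 and Ifi27l2b.

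**Figure D1:**
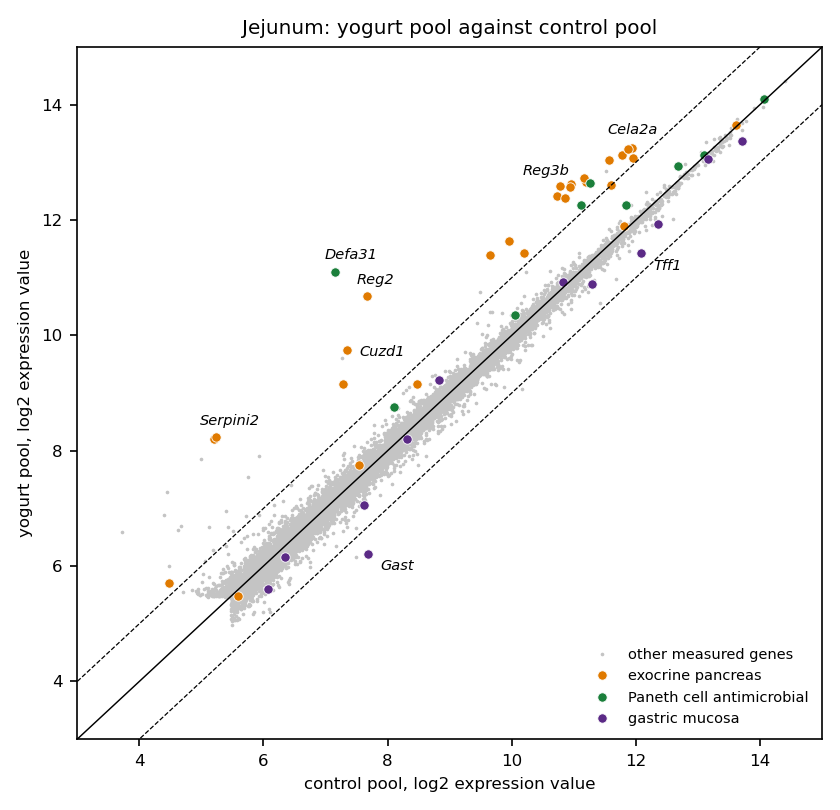
The log2 value of each measured gene in the yogurt pool (vertical axis) is plotted against its log2 value in the control pool (horizontal axis), with pancreatic, Paneth cell and stomach genes in colour and the rest in grey. Pancreatic genes lie above the diagonal at nearly every level, and most stomach genes lie slightly below it.

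Genes of the exocrine pancreas made up 21 of the 40 genes at least 2-fold higher. Of 28 such genes on the array 27 were measured, and 26 were higher and 1 lower in the yogurt pool, with a median difference of 1.48 against -0.01 over all measured genes. The antilogged values of the 28 genes summed to 124237 in the yogurt and 55554 in the control pool, a ratio of 2.24, and to between 1321 and 27007 on the other 8 arrays. The sum rests mostly on the brightest genes. Of the 27 measured genes, 20 lay above the 75th percentile of the control array in the control pool and 3 lay under its floor. In RNA from whole tissue, fewer cells of a type and less RNA per cell cannot be told apart, and how much pancreas each pool held was not tested.

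The control regions of 4 acinar genes are shown because they carry the letters of both motifs known for the acinar factor PTF1. No distance between the 2 motifs was required. Each line gives the 300 bases from 250 before to 50 after the gene's start, read along the gene's strand, from RefSeq on GRCm38.p6. Capitals mark CACCTG, the E-box, and TTTCCC, the TC-box, or their reverse complements CAGGTG and GGGAAA. Both strands were searched, and the matches did not overlap.
Cela2a, chr4:141825956-141826255, minus strand: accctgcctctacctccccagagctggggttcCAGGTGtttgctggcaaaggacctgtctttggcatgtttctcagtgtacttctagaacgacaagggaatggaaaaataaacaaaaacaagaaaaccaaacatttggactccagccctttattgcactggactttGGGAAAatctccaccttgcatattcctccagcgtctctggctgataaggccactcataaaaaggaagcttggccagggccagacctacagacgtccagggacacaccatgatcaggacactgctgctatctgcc
Prss2, chr6:41521526-41521825, plus strand: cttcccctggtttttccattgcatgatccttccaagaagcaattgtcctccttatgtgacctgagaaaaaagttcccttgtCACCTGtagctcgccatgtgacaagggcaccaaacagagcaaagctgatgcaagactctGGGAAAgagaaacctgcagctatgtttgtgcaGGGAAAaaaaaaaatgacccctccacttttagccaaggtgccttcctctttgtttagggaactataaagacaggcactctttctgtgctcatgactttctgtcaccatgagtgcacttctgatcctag
Cel, chr2:28563354-28563653, minus strand: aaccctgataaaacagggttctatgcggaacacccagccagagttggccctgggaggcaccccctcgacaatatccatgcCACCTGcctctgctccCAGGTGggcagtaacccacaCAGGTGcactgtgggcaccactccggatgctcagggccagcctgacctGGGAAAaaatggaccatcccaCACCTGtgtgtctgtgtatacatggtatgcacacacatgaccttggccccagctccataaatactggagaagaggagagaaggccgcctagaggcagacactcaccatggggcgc
Cela1, chr15:100687871-100688170, minus strand: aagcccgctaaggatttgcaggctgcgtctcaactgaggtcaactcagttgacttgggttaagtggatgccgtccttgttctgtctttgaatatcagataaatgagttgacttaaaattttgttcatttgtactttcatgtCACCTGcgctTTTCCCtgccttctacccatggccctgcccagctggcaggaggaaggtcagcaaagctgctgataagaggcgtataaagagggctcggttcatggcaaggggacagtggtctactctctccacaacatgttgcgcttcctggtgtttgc
In Cela1 the 2 motifs stood closest to each other, with the E-box 109 and the TC-box 99 bases before the start. Cel held 4 E-boxes and 1 TC-box, Prss2 held 1 E-box and 2 TC-boxes, and Cela2a held 1 of each. CACCTG was present in 14 of the 25 exocrine genes with a window (56.0%), against 22.6% of all 27025 genes. TTTCCC was present in 7 (28.0%), against 27.9%, and both together in 4 (16.0%), against 5.65%. A match is a description of the letters and not a binding site or a cause.

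Among the proteases, Cela2a, a pancreatic elastase, stood at 13.24 in the yogurt and 11.94 in the control pool, a difference of 1.30. Prss2, a trypsinogen, stood at 13.23 and 11.88, a difference of 1.35. Cela1 stood at 13.08 and 11.95, a difference of 1.13. Each of these 3 genes was thus bright in both pools and more than 2-fold higher in the yogurt pool. Ctrc, a chymotrypsin, stood at 11.64 and 9.96, which is 3.19-fold, and Cela3b, another elastase, at 12.58 and 10.94, which is 3.12-fold. The 4 probe sets of Cela3b gave differences of 1.26 to 1.79. Cpa1 and Cpb1, carboxypeptidases that trim amino acids from the ends of peptides, differed by 1.48 and 1.47. Prss3, a trypsinogen of lower signal, stood at 8.20 in the yogurt pool and under the floor in the control pool, at least 6.60-fold higher. Trypsinogens and elastases have close relatives, and a probe set may bind more than 1 of them.

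The lipases and their partners showed the same direction. Cel, the carboxyl ester lipase whose control region is printed above, stood at 12.63 and 10.95, which is 3.20-fold. Pnliprp1, a lipase-related protein, stood at 12.59 and 10.77, which is 3.53-fold. Pla2g1b, the pancreatic phospholipase, stood at 9.16 and 7.28, which is 3.68-fold. The yogurt pool was higher for all 3, although the difference of Pla2g1b was 1.05 with the mean of its probe sets, against 1.88. Clps, the colipase that anchors lipase to fat droplets, stood at 12.61 and 11.60, a smaller difference of 1.02. Pnliprp2, which is also a lipase of suckling mice, differed by 1.24 between 11.43 and 10.19, and it was bright in ileum too.

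Acinar genes other than the proteases and the lipases with their partners included the highest fold of the list. Reg2, a small secreted lectin-like protein of the pancreas, stood at 10.68 and 7.67, which is 8.04-fold. Serpini2, a protease inhibitor of acinar cells, stood at 8.23 against a value under the floor, at least 6.75-fold higher. Cuzd1, a zymogen granule membrane protein, stood at 9.74 and 7.34, which is 5.28-fold. Gp2, the main glycoprotein of the granule membrane, differed by 1.74, and Rnase1, the pancreatic ribonuclease, by 1.69. These 5 genes ranged from 3.22-fold to 8.04-fold, counting the bound of Serpini2.

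Not every gene of the exocrine list followed. Spink1, the trypsin inhibitor, stood at 11.90 and 11.82 and differed by 0.09, and Reg1 stood at 13.65 and 13.61 and differed by 0.04. Both pools held these 2 genes at nearly the same value. The part of acinar cells in the values of Spink1 and Reg1 was not tested. Reg1 was the brightest gene of the list. Whether a difference shows less at such values was not tested, and 1 probe set of Cela3b stood at 13.82 in the yogurt and 12.56 in the control pool. Of the acinar transcription factors, Bhlha15 showed a small difference, at 7.76 and 7.54. Rbpjl stood at 5.48 and 5.59, next to the floor in both pools, where a difference can hardly show. Rbpjl was the 1 lower gene, and its other probe set gave the opposite sign. Ptf1a, the DNA-binding subunit that gives PTF1 its name, stood at 5.71 in the yogurt pool and under the floor in the control pool. Its difference ranged from 0.22 to 1.24 under other settings. Among exocrine genes above the floor in both pools, the 10 with a control value of 11 or more had a median difference of 1.32, and the 14 below 11 had a median of 1.68. Across these 24 genes Spearman's rho between control level and difference was -0.38, a description of points that share both arrays. The control value also enters the difference, which by itself can push rho below 0 and set the 2 medians apart. No dependence on level is therefore read from these values.

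**Figure D2:**
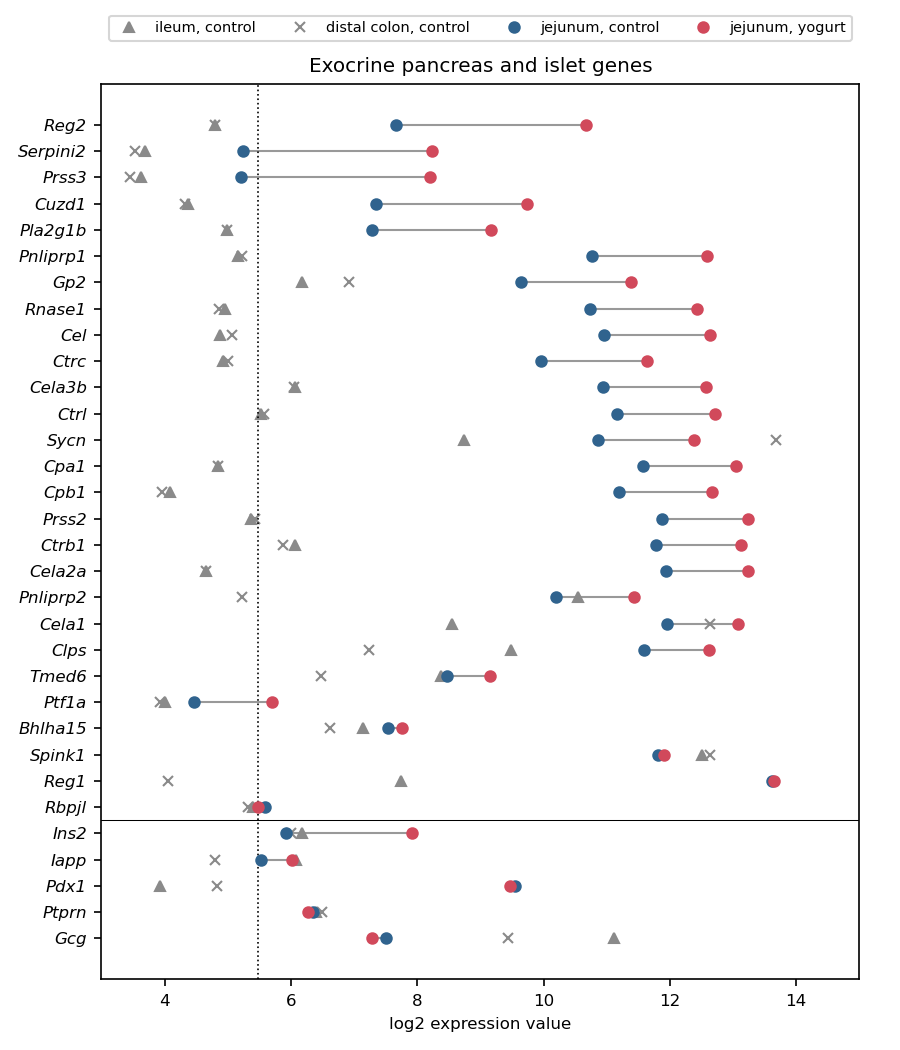
Each row is a pancreatic gene and the horizontal axis is its log2 expression value, with 1 point each for the yogurt and control jejunum and for the control ileum and distal colon, and a dotted line at the floor. The yogurt point lies to the right of the control point for most enzymes, while Reg1 and Spink1 show both points at nearly the same place.

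Acinar genes in the other tissues placed the jejunal values. Of the 21 exocrine genes at least 2-fold higher in jejunum, 10 were below the floor on all 8 arrays of the other tissues, and 8 were above it in both ileal pools. The median difference of the list was 0.02 in ileum and -0.09 in distal colon, against 1.48 in jejunum. These medians cover unlike sets, with 14 of the 28 genes measured in ileum, 12 in distal colon and 27 in jejunum. In ileum the differences ran from -1.78 to 0.55. Sycn, a zymogen granule protein, and Cela1 were also bright in distal colon, at 13.55 and 12.39 in the yogurt pool and 13.68 and 12.64 in the control pool.

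Genes of the pancreatic islet list had no common direction. Ins2, which encodes insulin, stood at 7.91 in the yogurt and 5.93 in the control pool. The control value lay within the 5.70 to 6.39 of the 8 arrays of other tissues, and the yogurt value was 2.88-fold above the highest of those. Iapp, the amylin that beta cells release with insulin, stood at 6.01 and 5.53, a difference of 0.49. Both beta cell products were thus higher in the yogurt pool. Gcg, which encodes glucagon and in the gut also glucagon-like peptides, stood at 7.29 and 7.51, a difference of -0.22. Of 10 islet genes on the array only 5 were measured, and the rest lay under the floor in both pools. Of the 5 measured islet genes 2 were higher, and the median was -0.08, which turned to 0.03 under both a lower floor and no floor. Gcg and Pdx1, both among the 5, are also genes of the gut, so the median does not stand for islet cells alone.

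Genes at least 2-fold higher outside both pancreatic lists numbered 18, and those named here were chosen after their values were seen. Pdia2, a disulfide isomerase of acinar cells, stood at 9.60 and 7.26, which is 5.07-fold. Cckar, the cholecystokinin receptor that triggers enzyme release, was at least 2.66-fold higher, at 6.89 against a value under the floor. Klk1b5, a kallikrein with close relatives, was at least 5.20-fold higher. The yogurt pool was higher for all 3 of these genes, and Pdia2 was the brightest of them. Amy1, an amylase nearly identical to the pancreatic amylase, was at least 2.22-fold higher, with 6.63 in the yogurt pool, and it was bright in liver, at 11.96 and 12.06. Reg3d, a Reg family member, stood at 7.55 and 5.75, which is 3.48-fold. The genes 2210010C04Rik and A2ml1, the second encoding a protease inhibitor, differed by 1.33 and 1.27, and A2ml1 was also bright in liver, at 9.83 and 9.61. Of these 18 genes, 4 were below the floor on all 8 arrays of the other tissues.

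Genes of the Paneth cell antimicrobial list stood higher under yogurt, unevenly. Of its 24 genes only 10 had a probe set of their own, and 9 were measured. Each of the 9 measured genes was above 0, where 46.5% of all measured genes were, though Lyz1 turned to -0.06 when a gene's probe sets were averaged. The median was 0.42, with 4 genes past 1.5-fold and 3 past 2-fold, against 0.635% and 0.326% of all genes. Of those 4 genes, 3 are Reg3 lectins, which enterocytes and pancreatic acinar cells can also make, and the exocrine list moved with them, with its median of 1.48. The part of acinar cells in the Reg3 values was not tested. The list had a median of 0.01 in ileum and 2.34 in distal colon, where 8 of its genes were measured. Defa31, an alpha-defensin that kills bacteria by piercing their membrane, stood at 11.11 in the yogurt and 7.16 in the control pool, which is 15.4-fold and the highest fold among the genes named. Its probe set can bind other alpha-defensins, which are nearly identical, so the value may stand for several of them. No other alpha-defensin of the list was measured by a probe set of its own. In ileum Defa31 stood at 14.53 in both pools.

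The Reg3 lectins, which bind and kill bacteria in the mucus layer, came next. Reg3b stood at 12.64 and 11.25, which is 2.62-fold, and its 2 probe sets gave 0.98 and 1.39. Reg3g, which targets Gram-positive bacteria, stood at 12.26 and 11.12, which is 2.20-fold. Reg3a stood at 8.75 and 8.10, a difference of 0.65. The yogurt pool was higher for all 3 lectins. Differences of the other Paneth genes were smaller, with Ang4, an antimicrobial ribonuclease, at 0.42, Mmp7, the protease that activates defensins, at 0.30, and Pla2g2a, a secreted phospholipase, at 0.25. Lyz1, the Paneth cell lysozyme, stood at 14.10 and 14.07, and Itln1, a lectin, at 13.13 and 13.09. The differences within the list thus ran from 0.03 for Lyz1 and 0.04 for Itln1 to 3.95 for Defa31. Lyz1 and the ileal Defa31 lay near the top of the array's scale, where a difference may not show, which was not tested. Itln1 lay lower, below the 13.24 of Cela2a in the yogurt pool, a gene that differed by 1.30.

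Antimicrobial genes shared by epithelium and neutrophils were mostly higher but near the floor. Of 13 measured, 10 were higher, where 46.5% of all measured genes were, and 3 lower. Past 2-fold were 4, against 0.326% of all measured genes, and the median was 0.18. S100a8 and S100a9, the 2 subunits of the metal-binding protein calprotectin, stood at 6.96 and 6.68 in the yogurt pool and under the floor in the control pool, at least 2.79-fold and at least 2.31-fold higher. Lcn2, which withholds bacterial iron carriers, was at least 2.28-fold higher, and Saa3, an acute phase protein, stood at 6.61 and 5.51, a difference of 1.10. With the floor raised to the 65th percentile of each array, the differences of S100a8, S100a9 and Lcn2 were 0.35, 0.07 and 0.06, and with a pseudocount of 32 that of Saa3 was 0.74. S100a8 was also higher in the yogurt pool of the other tissues, by at least 0.79 in ileum, at least 1.51 in distal colon, 1.27 in liver and 0.59 in spleen. Among 10 measured neutrophil genes 8 were higher, with a median of 0.20, and the medians were 0.07 in ileum, 0.17 in distal colon, 0.32 in liver and 0.73 in spleen. The summed antilogged value of the 17 neutrophil genes on the array was 1074 in the yogurt and 777 in the control pool. Mpo and Camp, defining products of neutrophil granules, were not measured in either pool. Ltf, the iron-binding lactoferrin, stood at 7.13 and 6.32, a difference of 0.81.

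In the opposite direction, Retnlb, a goblet cell protein that acts on Gram-negative bacteria, stood at 10.56 and 11.43, a difference of -0.87. Wfdc2, a secreted protease inhibitor, stood at 8.61 and 9.02, a difference of -0.41. Among 17 measured goblet cell and mucus genes, 11 were higher and 6 lower, with a median of 0.04, so Retnlb stood apart from that list.

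**Figure D3:**
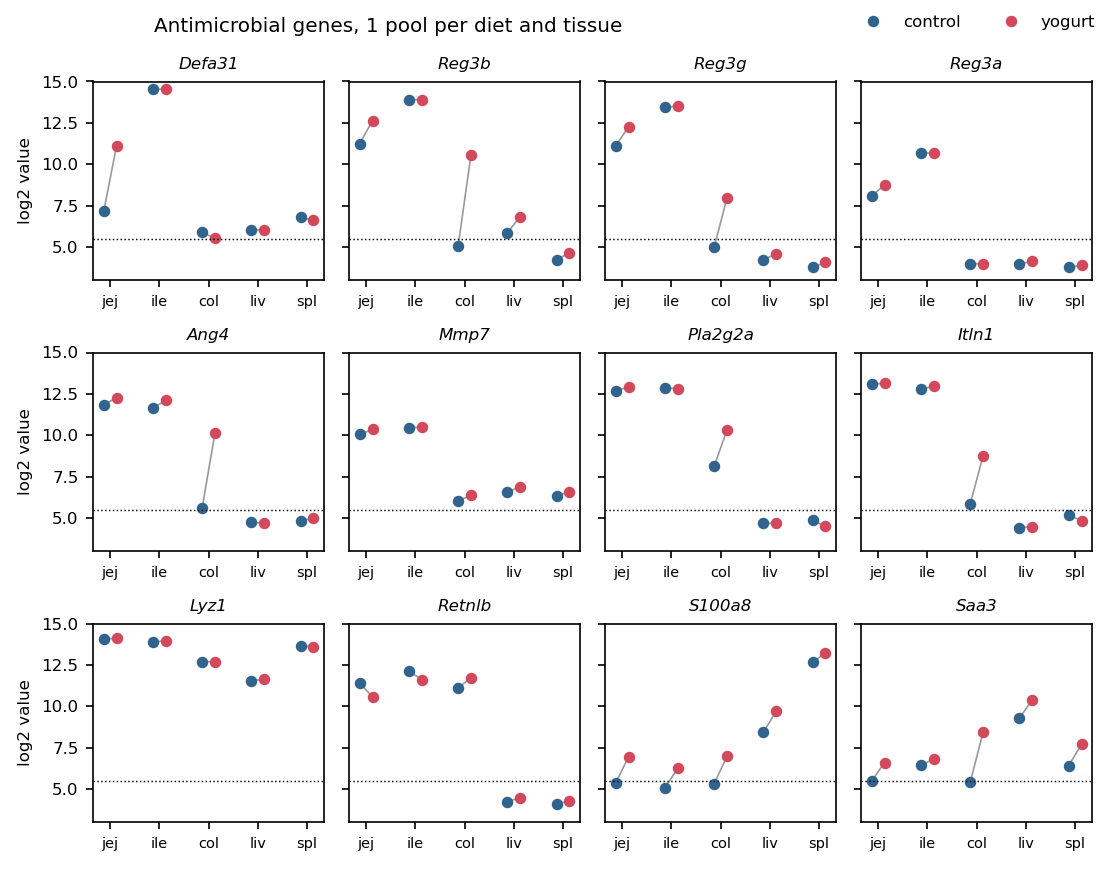
Each panel is 1 antimicrobial gene, with the log2 expression value of the control and yogurt pools on the vertical axis in each of the 5 tissues (jej, ile, col, liv and spl) and a dotted line at the jejunal floor. Defa31 shows a wide gap between the jejunal points, and both ileal points lie at 14.53, near the top of the scale.

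Stomach genes mostly stood lower under yogurt, opposite to the pancreatic ones. Of 12 measured genes of the gastric mucosa, 10 were lower in the yogurt pool, where 53.5% of all measured genes were, and 2 higher. The median was -0.37, against 0.00 in ileum. Their summed antilogged value was 31059 in the yogurt and 37928 in the control pool, a ratio of 0.819, and at most 8130 on the other 8 arrays. Gast, which encodes gastrin, the hormone of antral G cells that drives acid secretion, stood at 6.21 and 7.69, which is 2.77-fold lower. Tff1, a trefoil peptide of surface mucous cells, stood at 11.43 and 12.09, a difference of -0.66. Muc5ac, the mucin of those cells, stood at 7.06 and 7.62, a difference of -0.56. Both were lower in the yogurt pool, but not every product of surface cells was.

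Other stomach genes showed smaller gaps. Gkn2 and Gkn1, the gastrokines, stood at 11.93 and 10.89 in the yogurt pool and at 12.36 and 11.30 in the control pool. Tff2, a trefoil peptide of stomach neck cells and Brunner glands, stood at 13.37 and 13.70. The 2 higher genes were Anxa10, at 9.22 and 8.82, and Ctse, a protease of surface cells, at 10.93 and 10.82. Atp4a, the catalytic subunit of the acid pump, and Cblif, which encodes intrinsic factor, were not measured. Cym, a milk-clotting protease, and Shh, a signal of stomach and gut epithelium, differed by -0.68 and -0.67.

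Duodenal and Brunner gland genes were closer to even, with 4 of 13 measured genes higher, 9 lower and a median of -0.09. Cybrd1, the duodenal iron reductase, stood at 8.69 and 9.20, a difference of -0.52. Slc11a2, the iron transporter beside it on the brush border, stood at 9.43 and 9.81, a difference of -0.38, and S100g, the calcium-binding protein of enterocytes, differed by -0.31. Onecut2 and Gata4, factors of the proximal gut, stood at 9.62 and 9.60 and at 8.67 and 8.52, so those markers of position did not share the sign of the iron genes. Among 13 measured position factors 6 were higher and 7 lower, and their median of -0.06 turned to 0.02 with the higher floor and 0.01 with the mean of probe sets.

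**Figure D4:**
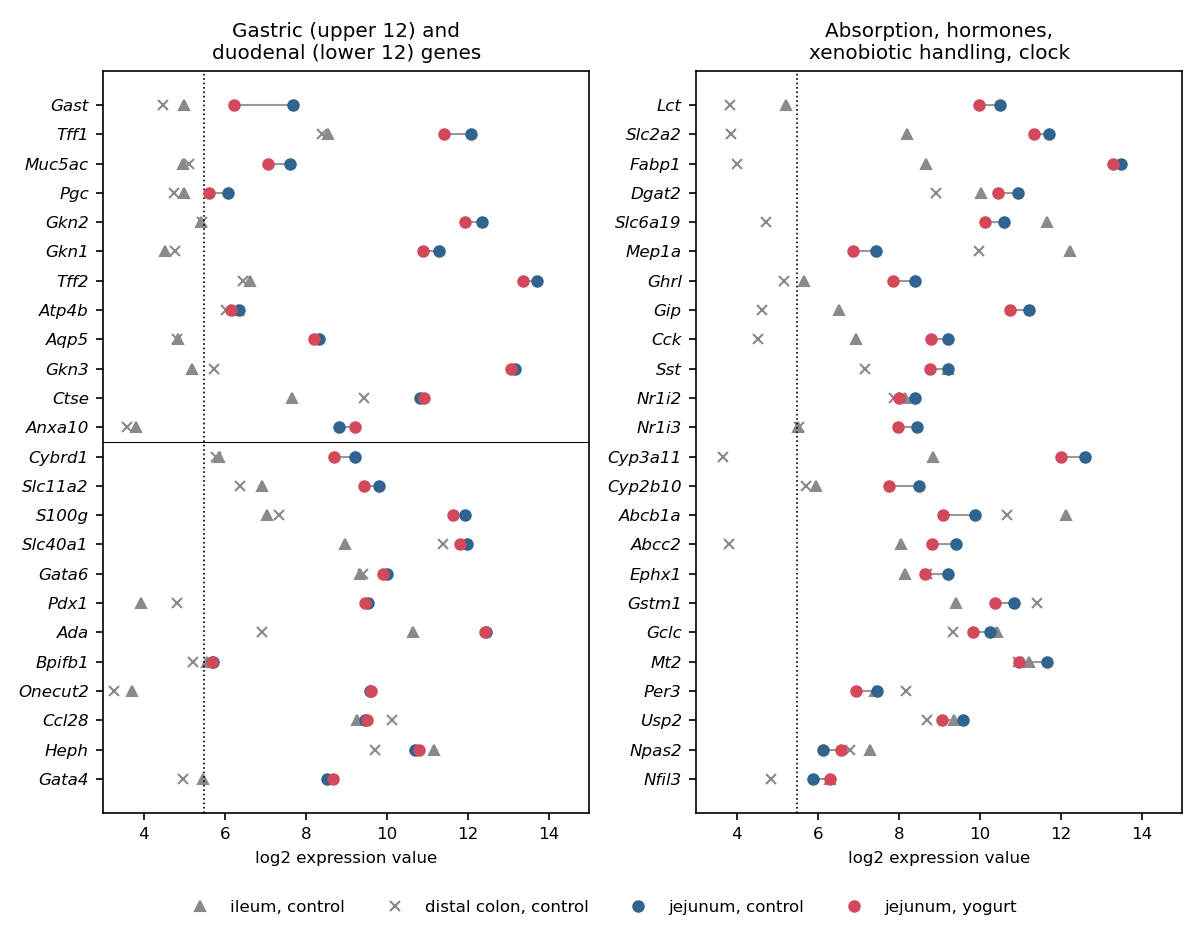
Each row is a gene, and the horizontal axis is its log2 expression value in the yogurt and control jejunum and in the control ileum and distal colon, with a dotted line at the floor. The left panel shows stomach and duodenal genes, the right panel genes of absorption, hormones, xenobiotic handling and the clock, and in most rows the yogurt point lies to the left of the control point by less than 1 unit.

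Genes of digestion and absorption were mostly slightly lower in the yogurt pool. Of 16 measured brush border hydrolases 15 were lower, with a median of -0.13, where 53.5% of all measured genes were below 0. Mep1a, a meprin subunit that cleaves peptides, stood at 6.87 and 7.44, a difference of -0.57. Lct differed by -0.51, and Akp3, an intestinal alkaline phosphatase, stood at 8.19 and 8.63, a difference of -0.45. Mep1b, the other meprin subunit, was the 1 higher gene, at 0.04. None of these genes reached 1.5-fold.

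Transport genes showed the same small lean. Of 12 sugar absorption genes 9 were lower, with a median of -0.17. Slc2a2, the basolateral glucose and fructose transporter, stood at 11.34 and 11.72, a difference of -0.39, and Khk, the enzyme that traps fructose, differed by -0.33. The glucose-forming enzymes Pck1 and G6pc went the other way, at 8.31 and 7.78 and at 8.87 and 8.37, though Pck1 differed by 0.01 with the mean of its probe sets. Among 27 lipid absorption genes 22 were lower, with a median of -0.15, led by Dgat2, which makes triglyceride, at 10.45 and 10.96. Npc1l1, which takes up cholesterol, and Abca1, which exports it, were higher by 0.22 and 0.21.

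Amino acid transport was close to even, with 10 of 15 genes lower and a median of -0.05. Slc6a19, the main neutral amino acid transporter of the brush border, stood at 10.13 and 10.61, a difference of -0.49, while Slc15a1, the peptide transporter, was higher by 0.24. Of 21 mineral and vitamin genes 16 were lower, and the median was -0.18. Among 10 measured metallothionein and zinc genes 8 were lower, with a median of -0.15. Mt2, a zinc-binding protein, stood at 10.97 and 11.67, a difference of -0.70, and its neighbour Mt1 stood at 12.06 and 12.42. Slc30a2, a zinc exporter also used by Paneth cells, differed by -0.59.

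Hormone genes of enteroendocrine cells were lower in 14 of 18 measured cases, where 53.5% of all measured genes were, with a median of -0.17. Ghrl, which encodes the hunger hormone ghrelin, stood at 7.86 and 8.40, a difference of -0.53. Gip, the incretin of proximal K cells, stood at 10.76 and 11.23, a difference of -0.47. Cck, which encodes cholecystokinin, the hormone that drives pancreatic secretion, stood at 8.81 and 9.22, a difference of -0.41. Several cell types were thus represented among the lower hormones, and Sst, the somatostatin gene, stood at 8.78 and 9.22 as well. Insm1, a factor of endocrine differentiation, was higher by 0.23.

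**Figure D5:**
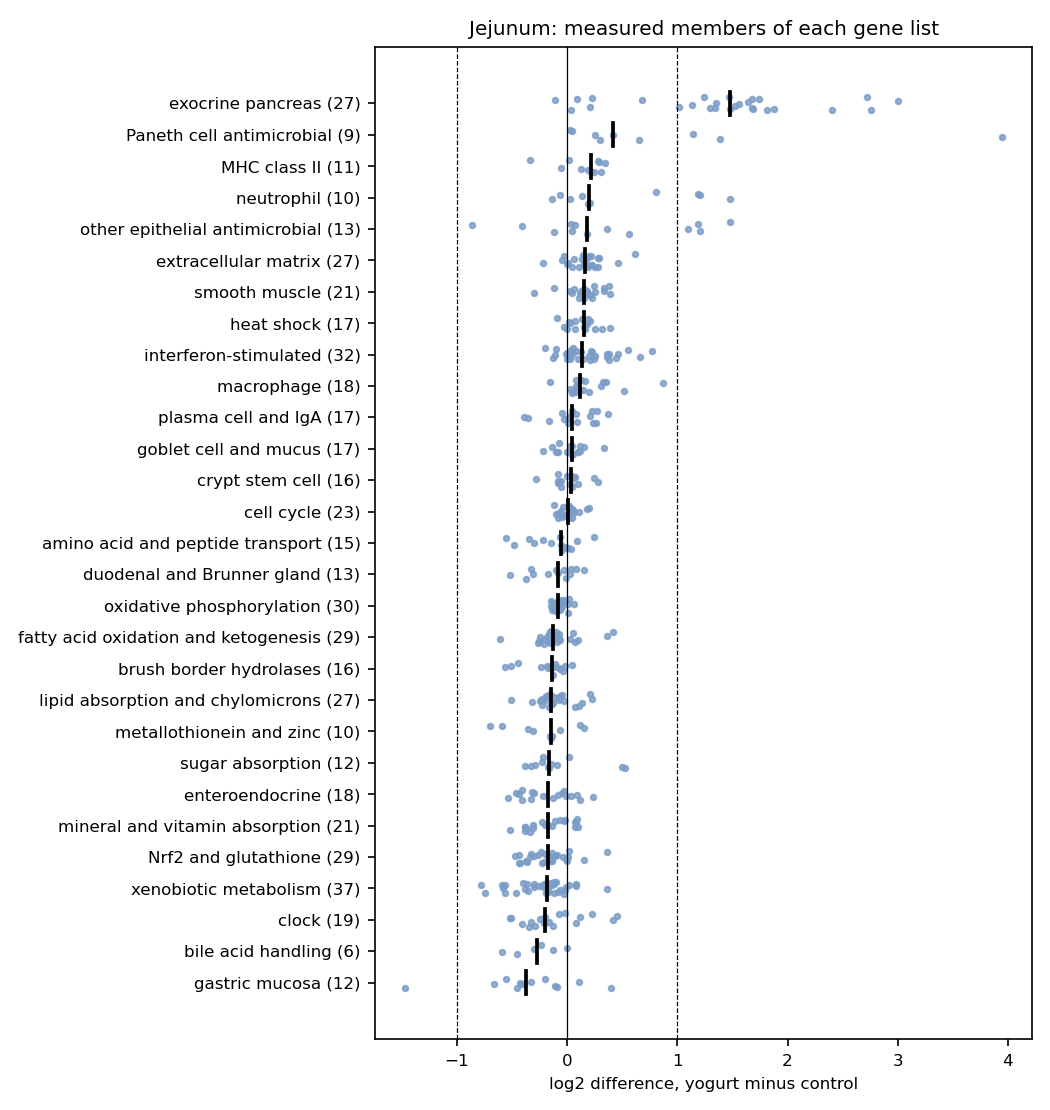
Each row is a gene list with its number of measured genes in parentheses, each point is 1 gene, and the horizontal axis is the log2 difference of yogurt minus control in jejunum, with a mark at the median of each list. The exocrine pancreas row reaches 3.01, while the medians of most other lists lie within about 0.2 of 0.

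Genes that handle drugs and other foreign compounds were lower in 33 of 37 measured cases, where 53.5% of all genes were, with a median of -0.18, and 3 were past 1.5-fold, where 0.244% of all genes were. In ileum 30 of 37 were lower, where 62.1% of all genes were, with a median of -0.13. Abcb1a, the efflux pump P-glycoprotein, stood at 9.10 and 9.88, a difference of -0.78, and at 12.15 in the control ileum. Cyp2b10, a target of the receptor CAR, stood at 7.75 and 8.49, a difference of -0.74. Abcc2, a pump for conjugates and bile pigments, stood at 8.83 and 9.42, a difference of -0.59. The receptors themselves were lower too, with Nr1i3, which encodes CAR, at 7.99 and 8.45, and Nr1i2, which encodes PXR, at 8.01 and 8.40. Cyp3a11, the main target of PXR, stood at 12.02 and 12.59, a difference of -0.58, and Ephx1 and Fmo5 each differed by -0.56. Of the 4 higher genes, Cyp1b1 differed by 0.36, and Ahr, Sult1a1 and Ces1d by less than 0.1.

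Glutathione and Nrf2 target genes leaned the same way, with 25 of 29 lower and a median of -0.18. Gstm1, a glutathione transferase, stood at 10.38 and 10.85, a difference of -0.47, and Gclc, the rate-limiting enzyme of glutathione synthesis, stood at 9.83 and 10.26. Gpx2, the epithelial glutathione peroxidase, was higher by 0.36, and Gsr, which recycles glutathione, by 0.15. All 6 measured genes of bile acid handling were below 0, with a median of -0.27, led by Abcc2 and Slc51a, a subunit of the basolateral bile acid exporter, at 8.78 and 9.23. Nr0b2 was at -0.00. Without the floor, the median of this list was -0.13.

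Mitochondrial genes showed smaller values. Of 29 fatty acid oxidation and ketogenesis genes 23 were lower, with a median of -0.13. Acaa1b, a peroxisomal thiolase, stood at 9.14 and 9.75, a difference of -0.61, while Pdk4, which shuts off glucose oxidation, was higher by 0.41. Of 30 subunits of oxidative phosphorylation 26 were lower, with a median of -0.09, and none reached 1.5-fold. Cholesterol synthesis and fatty acid synthesis had medians of -0.01 and 0.01, and the sign of the first changed with the mean of probe sets.

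Circadian clock genes were lower in 14 of 19 measured cases, with a median of -0.20. The median was also below 0 in the other tissues, at -0.09 in ileum, -0.19 in distal colon, -0.34 in liver and -0.16 in spleen. Over all measured genes the medians were below 0 too, at -0.01 in jejunum and, in the same order, -0.04, -0.01, -0.03 and -0.05.

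In the clock, Arntl and its partners switch on genes such as the Per repressors, and the output factors of the Dbp family act through D-boxes. The control regions of Ciart and Per3 are shown because they carry those letters, with capitals marking CACGTG, the E-box of the Arntl complex, in Ciart and TTANGTAA, the D-box, in Per3, from RefSeq on GRCm38.p6 in the same window and direction as above.
Ciart, chr3:95882179-95882478, minus strand: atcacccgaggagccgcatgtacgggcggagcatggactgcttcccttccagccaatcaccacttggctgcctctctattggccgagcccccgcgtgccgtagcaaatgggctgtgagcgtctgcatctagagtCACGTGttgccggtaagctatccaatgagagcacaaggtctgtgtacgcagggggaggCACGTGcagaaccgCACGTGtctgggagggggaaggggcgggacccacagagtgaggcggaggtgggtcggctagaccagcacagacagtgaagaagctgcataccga
Per3, chr4:151044616-151044915, minus strand: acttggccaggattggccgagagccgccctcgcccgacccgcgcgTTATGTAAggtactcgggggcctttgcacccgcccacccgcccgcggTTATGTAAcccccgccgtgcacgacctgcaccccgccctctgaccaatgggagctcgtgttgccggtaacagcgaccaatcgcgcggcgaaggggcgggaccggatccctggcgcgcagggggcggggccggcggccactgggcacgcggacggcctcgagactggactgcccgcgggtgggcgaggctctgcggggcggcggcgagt
Ciart, a repressor of Arntl, held 3 copies of CACGTG, at 116, 58 and 44 bases before the start. Per3 held 2 copies of TTANGTAA, at 205 and 158 bases before it. Over 17 clock genes with a window, CACGTG was present in 5 (29.4%), against 8.09% of all genes, and TTANGTAA in 1 (5.88%), against 2.72%. These matches describe letters only.

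Per3 stood at 6.94 in the yogurt and 7.47 in the control pool, a difference of -0.52. Usp2, a deubiquitinase with a strong daily rhythm, stood at 9.07 and 9.58, a difference of -0.51. Ciart stood at 5.94 and 6.29, a difference of -0.35. Per1 and Per2 differed by -0.33 and -0.29, and Tef and Hlf, which belong to the Dbp family, by -0.41 and -0.24. The Per genes and those output factors were thus lower in the yogurt pool, though Per3 differed by -0.17 with the mean of its probe sets. Dbp itself differed by -0.08 with its brighter probe set and by -0.89 with its other one. The higher genes were Npas2, at 6.57 and 6.12, Nfil3, a repressor that competes at D-boxes, at 6.30 and 5.89, Rora at 0.23, Arntl at 0.12 and Cry1 at 0.08. Noct, a deadenylase with a daily rhythm outside that list, stood at 8.68 and 9.29, a difference of -0.61. The labels state no hour of tissue collection, and its part in these values was not tested.

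Several immune lists were slightly higher in the yogurt pool, where 46.5% of all measured genes were above 0, but not all. Of 8 mast cell and eosinophil genes 6 were lower (median -0.07), and of 23 cytokines and their receptors 13 were lower (median -0.03). Of 11 MHC class II genes, which present antigen to helper T cells, 9 were higher, with a median of 0.22. H2-DMa, H2-Eb1 and Cd74 differed by 0.35, 0.31 and 0.29, while H2-Ea differed by -0.34 and H2-Oa by -0.06. Macrophage genes were higher in 17 of 18 cases, with a median of 0.12, and Ccl8, a chemokine of gut macrophages, differed by 0.52 and C1qb, a complement subunit, by 0.35. Among 14 MHC class I genes 10 were higher, with a median of 0.06, led by H2-Q10 at 0.78.

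Interferon-stimulated genes were higher in 25 of 32 cases, with a median of 0.14, against -0.02 in ileum and 0.22 in distal colon. Igtp, an interferon-inducible GTPase, stood at 9.11 and 8.34, a difference of 0.77. Iigp1, of the same family, stood at 8.45 and 7.79, a difference of 0.66. Irgm2, Gbp6 and Irgm1 differed by 0.56, 0.46 and 0.44. These members are GTPases known to be induced mainly by interferon gamma, and Ifit1 and Oas1a, antiviral genes of the type I response, differed by -0.00. Grouped after their values were seen, 8 GTPases had a median of 0.45 and a range of 0.22 to 0.77, and 8 Ifit and Oas genes had a median of 0.04 and a range of -0.00 to 0.22.

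Antibody genes had no common direction. Igha, the heavy chain of IgA, stood at 14.41 and 14.40, near the top of the scale, where a difference may not show, and Jchain, which joins IgA into dimers, differed by 0.08. Of 17 plasma cell genes 12 were higher, with a median of 0.05. Other chains differed in both directions, with the light chain genes Igkv6-14 and Iglv1 at -0.39 and -0.36 and Ighm, the heavy chain of IgM, at 0.37, or 0.10 with the mean of its probe sets. Outside the list, the light chain gene Igkv6-20 stood at 10.21 and 9.45, a difference of 0.77, and Igk at 11.10 and 10.23, with probe sets from -0.25 to 0.87. T cell genes were higher in 8 of 10 cases, with a median of 0.14, and B cell genes in 7 of 9, with a median of 0.05.

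Genes of the gut wall were slightly higher in the yogurt pool. Smooth muscle genes were higher in 19 of 21 cases, where 46.5% of all measured genes were above 0. Their median was 0.16, against 0.14 in ileum and -0.31 in distal colon. Myh11, the smooth muscle myosin, stood at 10.47 and 10.09, a difference of 0.38, and Synm, an intermediate filament protein, differed by 0.39. The summed antilogged value of the 21 muscle genes was 28514 in the yogurt and 26069 in the control pool. Extracellular matrix genes were higher in 23 of 27 cases, with a median of 0.17, led by Lum, a collagen-binding proteoglycan, at 8.08 and 7.47. All 4 measured genes of the interstitial cells of Cajal, the pacemakers of the muscle, were higher, with a median of 0.20. Muscle and matrix genes thus leaned up where enterocyte genes leaned down, and the share of mucosa in each pool was not tested.

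Renewal of the epithelium showed little difference. Of 23 cell cycle genes 13 were higher and 10 lower, with a median of 0.01 that lay below 0 under 2 other probe set rules, and of 16 crypt stem cell genes 9 were higher and 7 lower, with a median of 0.03. Heat shock genes were higher in 14 of 17 cases, with a median of 0.16, led by the chaperone Hsph1 at 0.39 and Hspa1b at 0.32. Unfolded protein response genes were higher in 16 of 26 cases, with a median of 0.05. Tight junction genes had a median of -0.03, and 0.01 with the higher floor.

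Among bright genes that were lower and belong to none of the groups above, Slc13a2, a citrate transporter, stood at 7.92 and 8.62, a difference of -0.70. Slc47a1, a cation exporter, stood at 7.42 and 8.08, and Nrg4, a growth factor that protects epithelium, at 7.23 and 7.88. Rbm47, an RNA-binding protein of the gut epithelium, stood at 9.15 and 9.73, a difference of -0.58. Under other settings the difference of Rbm47 ranged from -0.60 to -0.19, and that of Mid1 from -1.34 to -0.88.

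Parts of the pattern were seen in other tissues of the same mice. Of the 40 genes at least 2-fold higher in jejunum, 2 were also at least 2-fold higher in ileum, 6 in distal colon, 3 in liver and 3 in spleen, which is 5%, 15%, 7.5% and 7.5% of the jejunal genes and 25%, 13.6%, 16.7% and 13% of each tissue's own. Between 20 and 24 of the 40 were below the floor on both arrays of each of those tissues. Over all measured genes, the share at least 2-fold higher was 0.065% in ileum, 0.356% in distal colon, 0.148% in liver and 0.194% in spleen. Several small leans of jejunum stood in ileum as well, with ileal medians of -0.11 for lipid absorption, -0.10 for Nrf2 and glutathione genes, -0.11 for fatty acid oxidation and 0.14 for smooth muscle, where the median over all measured ileal genes was -0.04. The exocrine and stomach lists, at 0.02 and 0.00 in ileum, did not show it. Pla2g4c, a phospholipase, was higher in jejunum and ileum, at 7.28 against a value under the floor in jejunum and at 10.02 and 6.06 in ileum. Of the 30 genes at least 1.5-fold lower in jejunum, 18 were measured in ileum and below 0 there. Others of the 30, among them Gast, Rec8 and Cym, were under the floor in both ileal pools and were not counted. The 18 of 30 is thus not a like share to the 62.1% of measured ileal genes that were below 0. At least 1.5-fold lower in ileum were 3 of the 30, against 0.293% of all measured ileal genes.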

How the data were processed

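The values are log2 expression values per probe set, as deposited by the authors for 10 Affymetrix mouse arrays. Per the submitters' processing notes, MAS5 and affy were used, with no version or role, and the summary and scaling steps are not given in the sources used here. Nothing was rescaled. Of 45101 probe sets, 64 array controls were dropped, 34945 had 1 gene symbol, 932 had several and 9160 were unnamed here. Each gene was represented by its brightest probe set, taken by the mean of all 10 arrays, and 5.47 and 5.48, the array medians, served as floors in jejunum. Promoter windows are from RefSeq on GRCm38.p6. Of 1149 genes in 56 lists, 1009 had a probe set.

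The genes and lists were chosen with earlier results of these data known. Named were genes at least 2-fold lower, the 15 highest and 15 lowest bright genes whose probe sets shared a sign, and up to 6 leading genes of each list described with its contrary genes. Genes of the pancreatic, stomach, Paneth, position and clock lists were named by role. Cckar, Amy1, Reg3d, A2ml1, 2210010C04Rik, Pla2g4c, BC018473, Cym, Shh and Igkv6-20 were named after their values were seen. The alternatives were other floors, no floor, other probe set rules, centring and a pseudocount. Computations used Python 3.11.15, numpy 2.4.6, pandas 2.3.3 and scipy 1.17.1 and were tested on simulated data.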

Additional observations from a re-analysis of the deposited data

Results flagged for a closer look

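Probe sets with several or no gene symbol were not used in the comparison. Of 2643 such probe sets measured in jejunum, 18 were at least 2-fold higher in the yogurt pool and 4 at least 2-fold lower, and the highest difference was 2.72 on the log2 scale. They carry no gene name here, and there is no replicate check on them.

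Acaa1b, the peroxisomal thiolase, differed in opposite directions in 2 gut segments, with -0.61 in jejunum and at least 2.00 in distal colon on the log2 scale, where the control pool lay under the floor. With 1 pool per diet in each segment, the difference between them was not tested.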

How the results depend on the processing

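The count of genes at least 2-fold higher in jejunum ranged from 29 to 48 under 8 other settings of floor, probe set rule and scaling, and the count at least 2-fold lower from 2 to 3. The count at least 1.5-fold higher was 51 when the floor was raised to the 65th percentile. The count at least 1.5-fold lower was 19 with that floor, 17 with the mean of a gene's probe sets and 11 with a pseudocount of 32. Without the floor, the median of the bile acid list was -0.13 and that of the stomach list -0.23. In 2 alternatives chosen after seeing the data, the count at least 2-fold higher was 18 without the genes of the exocrine and islet lists and 26 without genes below the floor on all 8 arrays of the other tissues, and the exocrine median was 1.27 in the second. The cause of each shift was not tested, beyond the fewer genes that the higher floor and the 2 exclusions leave. Of 166 genes recomputed, 7 changed sign. Without probe sets ending in x_at or s_at, Hamp2 was at -0.0848, Igfbp5 at -0.18 and Pqbp1 at 0.0835, and the changes of Ces1d, Igha, Lyz1 and Rbpjl were in genes that differed little. The median of the islet list turned to 0.0318 with the floor at the 35th percentile, 0.0257 without a floor and 0.20 without genes below the floor in the other tissues. That of the position factors turned to 0.0161 with the higher floor and 0.0107 with the mean of probe sets. Genes near the floor depended most on it, and the difference of Amy1 ranged from 0.02 to 2.01 and that of Cckar from 0.28 to 2.50. With the mean of a gene's probe sets, Anxa10 was at 0.17, Slc11a2 at -0.20, Cybrd1 at -0.34, Npas2 at 0.25, Tef at -0.26, Nrg4 at -0.41, Ang4 at 0.26 and Abca1 at 0.07. With the higher floor, Ins2 was at 1.30, Reg3d at 0.94, Prss3 at 1.59, Serpini2 at 1.62 and Klk1b5 at 1.25. Without x_at and s_at probe sets C1qb was at 0.15. Signal close to background limits these genes. No paired analysis was possible because each diet had 1 pool per tissue and the labels carry no replicate numbers.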

Other observations

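Some genes differed in the same direction in all 5 tissues of these mice. Mid1, a ubiquitin ligase gene at the edge of the pseudoautosomal region, stood at 6.16 in the yogurt and 7.50 in the control jejunum, which is 2.52-fold lower, and differed by -1.01 in ileum, -0.62 in distal colon, -0.87 in liver and -0.65 in spleen. Ifi27l2b, an interferon-inducible gene, stood at 9.07 and 10.16 in jejunum, which is 2.12-fold lower, and differed by -0.58, -0.74, -0.42 and -0.19 in the same 4 tissues. Both were lower in every yogurt pool. BC018473, named after a clone, was at least 2.34-fold higher in jejunum, with 6.70 in the yogurt pool, higher by at least 1.55 in ileum, 1.40 in distal colon and 0.79 in liver, and higher by 3.31 in spleen. These tissues share the mice, so they are not replicates of the diet.

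For some genes past 1.5-fold in jejunum the probe sets disagreed in sign. They were Fam107a, Zfp3, Pqbp1, Hamp2, Igfbp5 and Igk.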
